A study of Mus musculus with 12 samples.

Results

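The introns described here were at least 200 nt and under 1000 nt long and were mostly removed in control N2a Flp-In rtTA cells, made from the mouse neuroblastoma line N2a. They were chosen by length and by measured retention. From the authors' splicing table, on the mm9 build, every intron of that length was taken that had a retention value in all 12 libraries, a mean over the 12 between 2% and 98%, and a mean over the 4 control libraries under 20%. This gave 5409 introns in 2947 genes, of 45204 introns of that length and 401633 splicing events in all. Of the remainder, 25790 lacked a value in some library and 13471 had a mean under 2%. The median length was 483 nt; 2828 introns were shorter than 500 nt and 2581 were not. No member overlapped another. Because control retention selected the members, their control levels are a description, and so are the counts of introns that went up or down against control. The 518 introns with a control mean under 2% met the filter on the mean only through higher knockdown or rescue values.

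Intron retention is the share of a gene's transcripts in which an intron has not been cut out. At the end of an intron the spliceosome reads a run of pyrimidines (C and T) and a final AG; U2AF binds this run and leads the U2 particle to the branch point. In human cells SAP30BP, a nuclear protein, acts with RBM17 (SPF45) on short introns whose pyrimidine run is too short to hold U2AF. A retained coding intron usually brings a stop codon into the reading frame, and such transcripts can stay in the nucleus or be degraded.

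All 12 libraries came from cells with rtTA, the transactivator that doxycycline switches on. Each line had a Sap30bp cDNA with a FLAG tag, inducible by doxycycline and inserted at a Flp-In site; in one it lacked exon 3 (line without exon 3) and in the other it held it (line with exon 3). In each line, rescue cells received an siRNA against Sap30bp and doxycycline, knockdown cells received this siRNA alone, and control cells received a non-targeting siRNA. Medium was changed at 24 h after transfection and cells were collected at 72 h. There were 2 biological replicates in each of the 6 groups. No group had the control siRNA with doxycycline, and each isoform was present in its own line alone, so isoform, line and doxycycline effects cannot be told apart in rescue. The authors' deposited table gives Sap30bp 196.5 RPKM in rescue, 21.7 in knockdown and 40.0 in control cells of the line without exon 3. In the line with exon 3 the authors' table gives it 141.3 RPKM in rescue, 18.6 in knockdown and 33.6 in control cells, with an authors' FDR for knockdown of 0.0674 without exon 3 and 0.0684 with it. Of 16 neuroblastoma and sympathoadrenal markers, 14 had at least 1 RPKM in control cells in that table. Of 10 fibroblast markers, 2 reached 1 RPKM in control cells, and Col1a2, Col3a1, Dcn, Lum and Postn were under 0.1. Their sum was 96.8 RPKM in rescue, 80.3 in knockdown and 158.9 in control cells without exon 3, and 57.8 in rescue, 62.6 in knockdown and 137.9 in control cells with exon 3; its part in the knockdown differences was not tested.

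Intron numbers below are from the matched GENCODE transcript. Intron ends are printed first, since the end of the intron is where U2AF and its partners act. No mm9 genome was used; introns were matched to GENCODE M21 on GRCm38 by chromosome, strand and the exact lengths of the intron and both neighbouring exons. Bases were read from annotated transcripts with an exon covering them, which exist for a minority. Such an exon need not hold the whole intron. The last 50 nt could be read for 12 of the 33 introns that passed the knockdown test described below. Of these, 10 are given, in the order of their knockdown difference, with the final AG in capitals.

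Tet2, chr3:133480342-133480391, minus strand: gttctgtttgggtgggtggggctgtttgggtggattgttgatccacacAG

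Ccdc22, chrX:7596023-7596072, minus strand: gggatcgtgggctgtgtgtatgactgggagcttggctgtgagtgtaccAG

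Ipo13, chr4:117894926-117894975, minus strand: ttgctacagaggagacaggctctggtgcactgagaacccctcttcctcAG

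Prpf40b, chr15:99305116-99305165, plus strand: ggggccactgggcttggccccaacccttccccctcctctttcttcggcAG

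Celsr3, chr9:108834499-108834548, plus strand: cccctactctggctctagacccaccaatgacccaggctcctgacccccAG

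Guf1, chr5:69567078-69567127, plus strand: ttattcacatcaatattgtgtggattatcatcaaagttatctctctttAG

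Napa, chr7:16114071-16114120, plus strand: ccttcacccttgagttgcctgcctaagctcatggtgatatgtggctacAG

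Plcg1 (273 nt intron), chr2:160754235-160754284, plus strand: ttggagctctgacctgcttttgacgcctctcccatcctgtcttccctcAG

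Kat5, chr19:5608958-5609007, minus strand: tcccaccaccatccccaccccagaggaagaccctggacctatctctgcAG

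Chtf18, chr17:25723767-25723816, minus strand: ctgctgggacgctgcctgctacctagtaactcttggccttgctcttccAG

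For comparison, the 3 readable introns whose knockdown difference lay nearest to 0 follow. Eno2 had 11.8% retention in knockdown and 11.8% in control libraries, Nat9 7.76% and 7.76%, and Eif5b 3.40% and 3.40%.

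Eno2, chr6:124761363-124761412, minus strand: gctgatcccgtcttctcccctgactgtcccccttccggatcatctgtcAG

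Nat9, chr11:115184627-115184676, minus strand: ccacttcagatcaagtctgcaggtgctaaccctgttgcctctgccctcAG

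Eif5b, chr1:38051073-38051122, plus strand: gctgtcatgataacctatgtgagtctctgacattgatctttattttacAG

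The ends of the introns that passed varied widely. Over the bases 25 to 4 before the exon, Ccdc22 held 40.9% pyrimidines, Napa 45.5% and Tet2 50%, while Prpf40b and the Plcg1 intron both held 90.9%. The last 50 nt of Tet2 are rich in G and T, and those of Prpf40b carry an unbroken run of 22 pyrimidines. The median over the 12 was 65.9%, and over 1205 readable introns that did not pass it was 72.7% (quartiles 63.6% and 77.3%). Of the 12, 5 lay below that lower quartile and 2 above the upper one. This is a description of few introns. Their last bases lie in annotated exons, and a transcript holding the whole intron was found for 6 of the 12.

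Knockdown minus control, averaged over both lines, came first; it asks which of these introns were left in when Sap30bp was reduced. Retention was higher after knockdown in 33 introns of 32 genes and lower in 0 (limma, Benjamini-Hochberg adjusted p under 0.05 over all 28979 tested events, and at least 15 percentage points). That is 0.61% of the introns, where 1.00% of all tested events and 1.49% of tested introns were called higher, and 1.48% of events in either direction; a fall of 15 points was possible only for the 288 introns with a control mean of 15% or more. The difference ran between 15.1 and 39.2 points over the 33 (median 20.2), and over all 5409 introns the median was 0.58 points, beside 0.39 over all tested events and 0.82 over tested introns. Without the size limit, 91 introns were higher and 20 lower at an adjusted p under 0.05 (background 2.44% higher and 1.43% lower). Unadjusted, 921 introns had a p under 0.05 (limma). For this and the later unadjusted counts, no share over all tested events is given. Shares printed beside the later ones are of calls, so they are no background for unadjusted counts. The count moved with the filter and with single libraries: it was 7 without the filter on the mean percentage, 8 without control 1 and 13 without knockdown 2 of the line without exon 3, 10 without control 1 of the line with exon 3, and 55 without knockdown 1 of the line without exon 3.

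**Figure D1:**
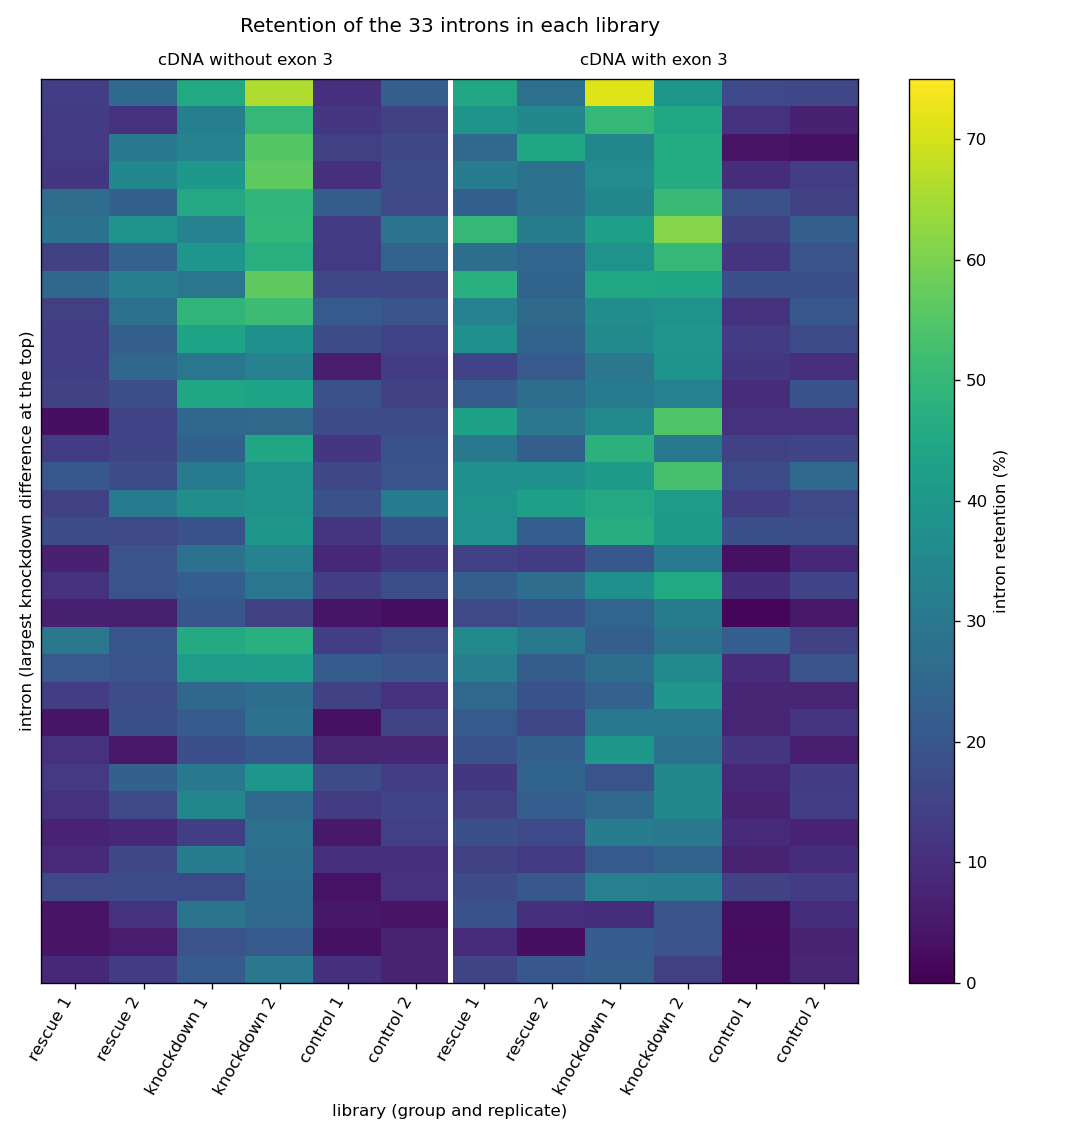
Retention (colour, percent) of the 33 introns that passed (rows, the largest knockdown difference at the top) in each of the 12 libraries (columns: rescue, knockdown and control in each line). The median over the 33 was 30.4% and 38.3% in knockdown libraries and 12.8% and 15.4% in control libraries of the line without exon 3, and 34.5% and 38.2% against 10.7% and 13.5% in the line with exon 3.

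Tet2, which oxidises methylated cytosine in DNA, was retained more at intron 5 of 11, the longest of the 33 (chr3:133143306-133144297, mm9, 992 nt). Without exon 3, retention was 32.3% and 50% in knockdown and 11.8% and 14.7% in control libraries. With exon 3 it was 50% and 44.7% in knockdown and 11.1% and 6.90% in control libraries. The 2 sets of libraries did not overlap in either line. The difference was 33.1 points (SE 3.93, limma adjusted p = 0.00343), with adjusted p at most 0.0289 over the alternatives.

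Ccdc22 encodes a subunit of the CCC complex, which returns membrane proteins from endosomes; its intron 9 of 16 was retained more (chrX:7173149-7173619, mm9, 471 nt). Knockdown libraries had 33.3% and 55.2% retention and controls 14.3% and 15.9% without exon 3. Knockdown libraries had 34.5% and 46.0% and controls 3.85% and 3.37% with exon 3. Control retention was thus lower in the line with exon 3, and no knockdown library reached down to it. The difference was 32.9 points (SE 5.96, limma adjusted p = 0.0147), and the call was lost in 4 of 20 alternatives. Ccdc22 also had a second intron that was higher after knockdown, of 97 nt, by 27.7 points.

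Pank4, a member of the pantothenate kinase family, was retained at intron 7 of 19 (chr4:154345664-154346257, mm9, 594 nt). It stood at 39.9% and 56.4% in knockdown and 10.4% and 16.9% in control libraries without exon 3, and at 36.2% and 46.3% in knockdown and 9.73% and 13.5% in control libraries with exon 3. Knockdown libraries were higher in each line without overlap. The difference was 32.0 points (SE 5.36, limma adjusted p = 0.0113).

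Rec8, the kleisin subunit of meiotic cohesin, had more called introns, over all lengths and control levels, than any other of the 32 host genes. The intron of this length class was 278 nt (chr14:56241723-56242000, mm9, intron 11 of 19). It had 45.3% and 49.4% retention in knockdown and 22.2% and 16.5% in control libraries without exon 3. With exon 3 it had 34.5% and 51.0% in knockdown and 18.6% and 14.8% in control libraries. The sets did not overlap, and the difference was 27.1 points (SE 3.90, limma adjusted p = 0.00589). Rec8 introns of 76, 80 and 83 nt also rose, by 34.7, 28.9 and 20.7 points. A Rec8 intron of 283 nt, whose control mean of 31.7% kept it out of the group, rose by 21.2 points.

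Celsr3, an adhesion receptor of the cadherin family needed for axon tracts, was retained at intron 6 of 35 (chr9:108736343-108736879, mm9, 537 nt). Celsr3 had 49.0% and 51.3% retention in knockdown and 21.4% and 19.6% in control libraries without exon 3. With exon 3, Celsr3 had 37.1% and 38.2% in knockdown and 11.1% and 20.4% in control libraries. Replicates of the knockdown groups were close to each other, and the difference was 25.8 points (SE 3.78, limma adjusted p = 0.00645). Islr2, a membrane protein with leucine-rich repeats involved in axon growth, had 33.3% and 49.6% in knockdown and 13.0% and 28.5% in control libraries without exon 3 (chr9:58047791-58048078, mm9, 288 nt). In the line with exon 3, Islr2 had 42.4% and 61.3% in knockdown and 14.6% and 22.6% in control libraries. Replicate 2 was the higher one in all 4 knockdown and control groups of Islr2. It was also higher in rescue without exon 3 (28.2% and 38.2%), but lower in rescue with exon 3 (50% and 31.9%). The Islr2 difference was 27.0 points (SE 6.16, limma adjusted p = 0.0377), and its call was lost in 10 of 20 alternatives.

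Ipo13, a nuclear transport receptor, was retained at its intron 18 of 19 (chr4:117567531-117567816, mm9, 286 nt). It had 39.4% and 47.0% in knockdown and 12.8% and 23.7% in control libraries without exon 3, and 38.3% and 50% in knockdown and 11.3% and 19.3% in control libraries with exon 3. The lines gave nearly the same levels, and the difference was 26.9 points (SE 4.15, limma adjusted p = 0.00825). Ipo13 also had an intron of 118 nt that rose by 19.4 points.

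Prpf40b, the relative of a yeast U1 snRNP protein, was the one splicing factor among the hosts taken from the spliceosome list (chr15:99134922-99135596, mm9, 675 nt, intron 4 of 25). Retention was 29.3% and 56.8% in knockdown and 15.97% and 16.3% in control libraries without exon 3. With exon 3 it was 45.0% and 44.4% in knockdown and 18.3% and 18.3% in control libraries. Knockdown libraries without exon 3 differed widely (SD 19.4 points) and lay on either side of those with exon 3. The difference was 26.7 points (SE 6.15, limma adjusted p = 0.0390), and the call was lost in 11 of 20 alternatives.

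Napa encodes alpha-SNAP, which takes apart SNARE complexes after membrane fusion; its intron 7 of 10 had the smallest SE of the 15 introns named by size (chr7:16698910-16699469, mm9, 560 nt). Knockdown libraries had 44.2% and 43.6% and controls 18.6% and 14.3% without exon 3; knockdown libraries had 30.8% and 32.99% and controls 9.43% and 18.8% with exon 3. The difference was 22.6 points (SE 3.13, limma adjusted p = 0.00543). Tet2, Rec8, Celsr3 and Napa kept their call in each of the 20 alternatives run for the named introns. The call was lost in 4 for Slc9a5, in 3 for Pank4, in 2 each for Guf1 and Ndor1, and in 1 for Ipo13.

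The others of the 15 with the largest differences were Guf1, Ndor1, Rnf215, Lrrc45 and Slc9a5. Guf1, a mitochondrial translation GTPase, averaged 38.9% in knockdown and 15.6% in control libraries (623 nt, limma adjusted p = 0.0103). Ndor1, a flavoprotein of cytosolic iron-sulphur cluster assembly, averaged 32.8% in knockdown and 10.2% in control libraries (267 nt, limma adjusted p = 0.00862). These 2 introns had knockdown libraries above all controls in both lines. Rnf215, a RING finger protein, averaged 35.5% in knockdown and 13.9% in control libraries (250 nt, limma adjusted p = 0.0289), with a difference of 34.6 points with exon 3 and 8.52 without, and its call was lost in 8 of 20 alternatives. Lrrc45, a protein of the centrosome linker, averaged 36.5% in knockdown and 15.2% in control libraries (206 nt, limma adjusted p = 0.0457), and its call was lost in 13 of 20 alternatives. Slc9a5, a sodium-proton exchanger of neurons, averaged 40.8% in knockdown and 19.5% in control libraries (588 nt, limma adjusted p = 0.0133).

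The other 18 introns differed by 15.1 to 20.4 points, among them introns in Rhbdf1, Lpcat4, Myo9b, Plcg1 (2 introns), Leprel2, Man2b1, Mllt6, Kat5, Pole, Sars2, Fbxw5, BC023814, Dgkq, Snapc4, Chtf18 and Wdr8. They include Kat5, the Tip60 histone acetyltransferase, Pole, the catalytic subunit of DNA polymerase epsilon, and Chtf18, part of an alternative sliding clamp loader. Leprel2, a collagen prolyl hydroxylase also named P3h3, had the lowest control mean of the 33, at 3.50%. Its retention was 20% and 14.8% in knockdown and 4.35% and 3.09% in control libraries without exon 3, and 24.3% and 31.7% in knockdown and 1.45% and 5.13% in control libraries with exon 3. Plcg1, phospholipase C gamma 1, was the only gene with more than 1 of the 33. Its introns of 273 and 209 nt differed by 19.7 and 15.1 points.

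Whole introns are shown for Chtf18 and Kat5 to make the reading frame visible. Capitals mark the first GT, the final AG and the first stop codon in the frame that the annotated coding exons set; in Chtf18 this stop begins at base 2 and overlaps the GT.

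Chtf18 intron 9, chr17:25723767-25724002, GRCm38, minus strand: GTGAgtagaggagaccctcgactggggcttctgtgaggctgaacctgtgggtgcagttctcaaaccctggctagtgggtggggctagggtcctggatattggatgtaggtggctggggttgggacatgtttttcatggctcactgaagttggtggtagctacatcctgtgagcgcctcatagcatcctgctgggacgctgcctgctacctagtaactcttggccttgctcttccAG

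Kat5 intron 4, chr19:5608958-5609235, GRCm38, minus strand: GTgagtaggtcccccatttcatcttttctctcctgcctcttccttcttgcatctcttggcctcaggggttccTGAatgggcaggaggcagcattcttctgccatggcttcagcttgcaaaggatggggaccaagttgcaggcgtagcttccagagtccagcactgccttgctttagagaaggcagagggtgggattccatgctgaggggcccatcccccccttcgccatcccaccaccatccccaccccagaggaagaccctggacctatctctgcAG

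All 6 introns that passed and could be read whole held such a stop, Kat5 at base 73, Prpf40b at base 19 and Ccdc22 at base 52. Of 706 coding introns that did not pass and could be read whole, 694 held one too. All 28 introns that passed and could be matched were internal coding introns; of 4856 matched introns that did not pass, 92.3% were internal and 98.4% coding. Flanking exons had a median GC content of 57.2% beside the 28, and of 54.1% beside the others.

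Length split the group. Of introns of 200 to under 300 nt, 17 of 1203 (1.41%) were higher after knockdown, and from 300 to under 700 nt the share lay between 0.35% and 0.64% per 100 nt. Of 496 introns in the next bin and 478 in the one after it none was called by limma, and Tet2 and Mllt6 were the 2 of 406 at 900 nt or more. The median length was 288 nt over the 33 and 484 nt over the rest. The median difference was 0.78 points under 500 nt and 0.39 points at 500 nt or more. Under the same control limit, 6.79% of 1871 introns under 100 nt and 1.29% of 1943 introns from 100 to under 200 nt were higher, against 0.07% of 6808 introns of 1000 nt or more.

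**Figure D2:**
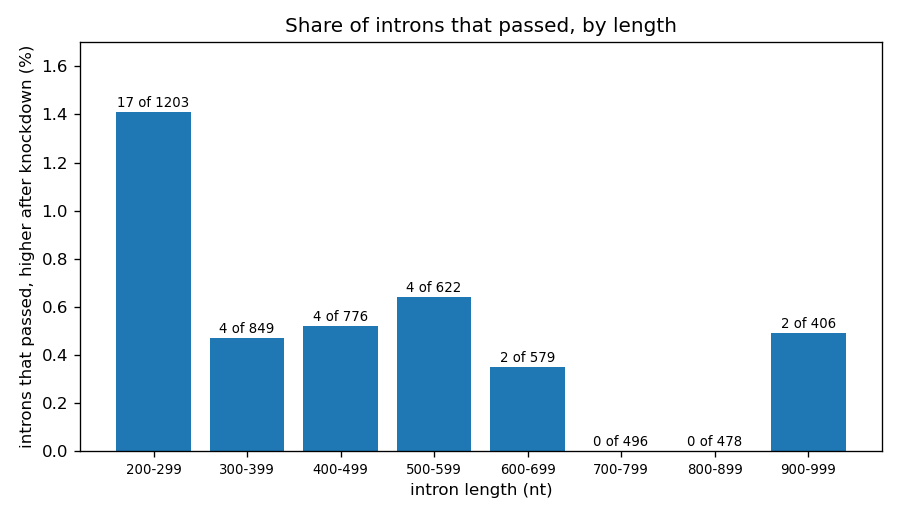
Share of introns (bars, percent) called higher after knockdown in each 100 nt bin of intron length, with the number called of the number in the bin above each bar. The first bin stands at 1.41% and the 2 bins between 700 and 900 nt at 0.

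Control level split it as well. Of 2560 introns with a control mean of 2% to under 5%, 1 was called (Leprel2), while of 288 introns at 15% to under 20%, 14 were (4.86%). No intron of the 518 with a control mean under 2% was called by limma. From 2% upward the median difference did not follow control level: it was 0.44 points from 2% to under 5%, 0.00 from 5% to under 10%, 0.50 from 10% to under 15%, and 0.77 from 15% to under 20%. Under 2% the median was 1.7 points. Those introns reached a mean of 2% only through higher knockdown or rescue values, so that median cannot be compared with the others. Just inside the limit of 20%, Rhbdf1 had a control mean of 19.995% and differed by 20.4 points, Hdac7 had 19.8% and differed by 6.54 points, and 2410091C18Rik had 19.8% and differed by -7.14 points. Just outside it, Mapk12 (20.025%), Mfsd10 (20.1%) and Sox8 (20.1%) differed by 11.3, 5.74 and -6.22 points.

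Retention in the same genes was uneven. The 32 host genes held another 79 introns of the group that did not pass, with a median difference of 1.46 points (lowest -6.63, highest 14.6). Outside the length or control limits, 12 further introns in 9 of these genes were called higher after knockdown. Over all tested introns 1.49% were called higher, and of those under 100 nt 7.61%. How many introns of these genes were tested outside the limits was not counted, so the 12 show no clustering in them.

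The 20 introns that were lower at an adjusted p under 0.05 fell by less than the 15 points of the call, with a median of -6.64 points. The 3 with the largest falls are named here after their values were seen. Scrib, a scaffold of cell polarity, had 7.74% and 7.25% retention in knockdown and 25.4% and 18.4% in control libraries without exon 3, and 2.75% and 5.22% in knockdown and 11.7% and 16.8% in control libraries with exon 3 (489 nt). No knockdown library of Scrib reached a control level, and it fell by 12.3 points (SE 2.27, limma adjusted p = 0.0158). Heatr7a (301 nt) averaged 1.33% in knockdown and 11.1% in control libraries. Slk, a kinase (204 nt), averaged 7.40% in knockdown and 16.8% in control libraries.

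**Figure D3:**
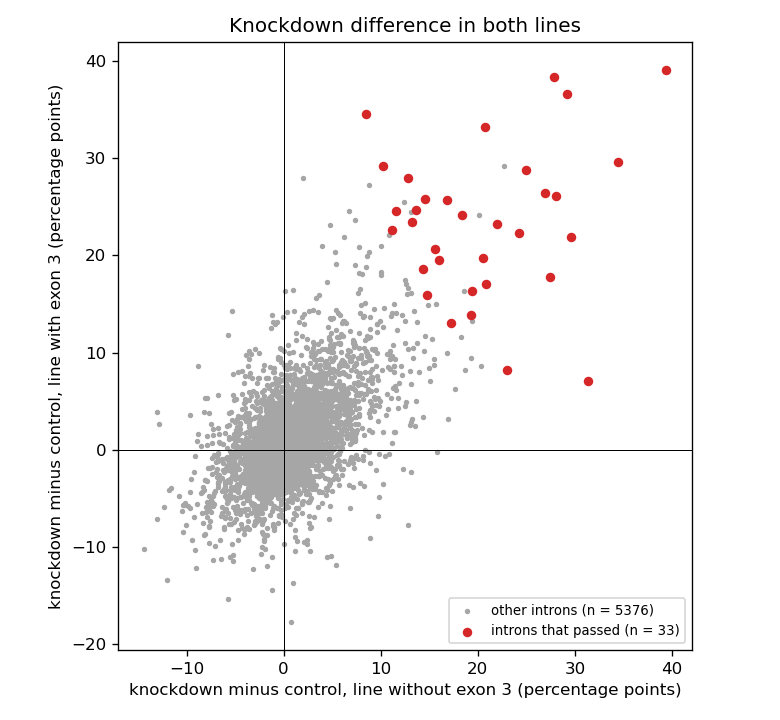
Knockdown minus control in percentage points in the line without exon 3 (x axis) and with exon 3 (y axis) for the 5409 introns; red points are the 33 that passed on the mean of both lines, which fixes where they can lie, and grey points the others. All 33 are above 0 on both axes, Rnf215 at 8.52 and 34.6 points and Man2b1 at 31.4 and 7.04 points.

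Fewer introns passed within a single line. In the line without exon 3, 0 introns passed with limma (428 at an unadjusted p under 0.05; all tested events 0.0207% called in either direction), or 7 without its own knockdown 1. In the line with exon 3, 4 passed, all higher (background 0.197% higher, 0.338% in either direction): Tet2, Leprel2, the 273 nt intron of Plcg1 and Sars2, a mitochondrial seryl-tRNA synthetase. Their limma adjusted p was 0.0267, 0.0243, 0.0368 and 0.05 in that order, so Sars2 passed only at the limit. Without either control library of either line the 4 became 0, without knockdown 1 of either line they became 9 (line without exon 3) or 15 (line with exon 3), without knockdown 2 they became 9 or 2, and without rescue 1 of either line or rescue 2 of the line with exon 3 they became 2. The authors' deposited table calls 30 of the introns higher after knockdown without exon 3 (background 1.01%) and 55 with it (background 1.37%). It calls 18 of them in both lines, and 32 of the 33 in at least 1 line. For these 2 counts no share over all tested events is given. The 33 and the authors' calls rest on the same libraries, so their overlap is no independent support. Kat5 is the exception, and that table gives no difference for it.

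Introns that the authors' deposited table calls in one line could be looked at in the other, whose knockdown libraries took no part in that call; its controls entered the limit of 20%. The 30 called without exon 3 had a median level of 25.7% in rescue, 32.6% in knockdown and 14.2% in control groups of the line with exon 3. Their knockdown difference there was above 0 in 29 of 30 (56.8% of all tested events and 64.6% of tested introns), with a median of 18.8 points. The 55 called with exon 3 had a median level of 17.0% in rescue, 26.0% in knockdown and 14.8% in control groups of the line without exon 3. Their knockdown difference there was above 0 in 55 of 55 (55% of all tested events and 61.6% of tested introns), with a median of 12.8 points. Both knockdown libraries stood above both controls in 43 of 55 (23.2% of all tested events).

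Rescue minus knockdown asked whether an induced isoform lowered retention again. No intron passed with limma, on the mean of both lines (458 at an unadjusted p under 0.05; all tested events 0.0104% called), without exon 3 (445; 0.00345%) or with exon 3 (314; 0.00%). Without knockdown 1 of the line without exon 3, 4 introns passed on the mean and 1 in that line, and without knockdown 1 of the line with exon 3, 2 passed on the mean and 2 in that line. The median difference over the 5409 was -1.15 points without exon 3 and -0.11 with it (all tested events -0.87 and -0.05). The authors' deposited table calls 28 of the introns lower in rescue without exon 3 (background 0.676%) and 5 with it (background 0.166%).

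**Figure D4:**
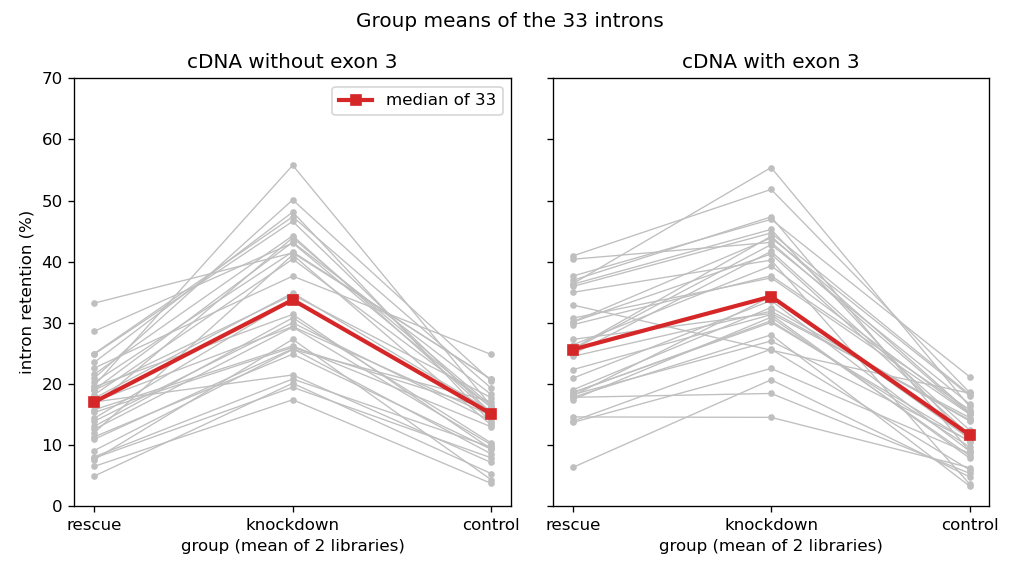
Retention (percent) of each of the 33 introns as group means of 2 libraries in rescue, knockdown and control cells, without exon 3 (left) and with exon 3 (right); the red line joins the medians over the 33. The median was 17.0% in rescue, 33.8% in knockdown and 15.1% in control groups without exon 3, and 25.6% in rescue, 34.3% in knockdown and 11.6% in control groups with exon 3.

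The 33 introns were picked for high knockdown and low control values, so their distances from these groups are given as a description. In the line without exon 3, rescue was lower than knockdown by a median of 16.5 points, and both rescue libraries lay below both knockdown libraries in 30 of 33 (26.8% of all tested events). In the line with exon 3 it was lower by a median of 10.4 points, with both libraries below in 20 of 33 (16.5% of all tested events). Above control, rescue stood by a median of 2.10 points without exon 3 and 12.4 with it; both rescue libraries exceeded both controls in 6 of 33 without exon 3 (12.2% of all tested events) and in 31 of 33 with it (23.8%).

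Rescue levels entered the choice of the 33 only through the mean over 12 libraries and the shared variance of the fit. The mean was higher in the rescue group with exon 3 than in the one without in 32 of 33, with a median gap of 7.71 points; Ndor1 was the exception, at 18.1% with exon 3 and 19.5% without. Over all 5409 introns the mean was higher with exon 3 in 73.1%, with a median gap of 1.17 points, and over all tested events in 62.7%. Both libraries with exon 3 lay above both without it in 18 of 33, in 31.4% of the 5409 and in 25% of all tested events. The general level moved with this: the median over the introns that did not pass was 4.76% and 4.92% in rescue libraries with exon 3 and 2.89% and 4.38% in those without, and its part in the gap was not tested. Replicate 2 had the higher median in all 6 groups.

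Tet2, Slc9a5 and Wdr8, picked after their values were seen, are examples of wide and narrow gaps. Tet2 had 38.9% and 35% in rescue libraries with exon 3, and 13.3% and 10.7% in those without, next to its control level. Slc9a5 had 37.7% and 37.5% with exon 3, and 20.8% and 17.1% without. Both introns are called between the rescue groups in the authors' deposited table, among 9 introns of the group (background 0.273%). Wdr8, also named Wrap73, a centrosome protein, had 9.52% and 3.12% with exon 3 and 3.94% and 5.88% without, near its control mean of 5.06% in both lines.

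The difference of rescue minus knockdown between the lines, with exon 3 minus without, passed for 0 introns (limma; smallest adjusted p 0.765, 250 at an unadjusted p under 0.05, all tested events 0.00345% called). Among the 33 it was largest for Man2b1, a lysosomal alpha-mannosidase, singled out here after its values were seen. Man2b1 had 29.7% and 20% in rescue, 45.8% and 47.4% in knockdown and 13.6% and 16.9% in control libraries without exon 3. With exon 3 it had 35.6% and 30.2% in rescue, 22.4% and 28.6% in knockdown and 22.4% and 14.5% in control libraries. Rescue was thus below knockdown in the first line and above it in the second, and the difference of 29.1 points had an adjusted p of 0.830 (limma). Rescue minus control passed for 0 introns in either line (limma; 256 without exon 3 and 343 with it at an unadjusted p under 0.05; all tested events 0.00345% and 0.00% called). The authors' deposited table calls 1 intron higher in rescue than in control without exon 3 and 16 with it (background 0.0863% and 0.5%), among them Tet2, Ccdc22, Pank4, Rnf215 and Rhbdf1.

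Host genes were next set against functional lists. Over all 5409 introns 0.61% were called higher after knockdown, and over all tested events 1.00%. On lists this short, counts of 0 or 1 are therefore no result about a list. Genes of 3′ splice site recognition held 18 of the introns in 10 genes, and 0 passed in any contrast; the median knockdown difference was -0.23 points. U2af1l4, a relative of the small U2AF subunit, had the 2 largest differences of the list. Its 310 nt intron had 9.20% and 9.41% in knockdown and 2.07% and 2.54% in control libraries without exon 3, and 2.14% and 6.08% in knockdown and 2.37% and 3.00% in control libraries with exon 3 (4.21 points, limma adjusted p = 0.0683). The libraries of that U2af1l4 intron overlapped with exon 3 and not without it. Cherp, a U2-linked protein that binds RBM17 in human cells, had a 310 nt intron at 3.51 points (limma adjusted p = 0.636).

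Other lists had a single intron each or none, to be read beside the same shares. Of 44 introns in other spliceosome genes and their regulators, Prpf40b passed, and the median was 0.45 points. Of 65 introns in genes of 3′ end processing and RNA decay, 0 passed, with a median of 0.22 points; a 387 nt intron of Ints3, of the Integrator complex, fell by 4.86 points (limma adjusted p = 0.0252), and Skiv2l and Pan2 introns differed by 9.22 and 8.87 points (limma adjusted p = 0.136 and 0.242). A Cpsf7 intron of that list differed by -8.84 points and a Upf1 intron by -6.41 points (limma adjusted p = 0.0912 and 0.0692). Of 66 introns in DNA replication and repair genes, Pole passed, with a median of 1.00 points. Introns of Fancg, a Fanconi anaemia protein, and Pold1, the catalytic subunit of DNA polymerase delta, differed by 13.6 and 13.4 points without passing (limma adjusted p = 0.0678 and 0.101). Of 39 introns in neuronal and axon genes, Celsr3 passed, with a median of 1.88 points, and an intron of the GABA-B receptor subunit Gabbr1 differed by 13.0 points (limma adjusted p = 0.0675).

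Gene expression of the hosts was read from the authors' deposited table, which has 1 RPKM value per group. The 31 host genes found there had a median of 19.4 RPKM in control cells (5.80 to 95.9), and 2888 host genes of the other introns 23.2 RPKM. The authors' FDR was under 0.05 after knockdown for 0 of the 31 without exon 3 and for 3 with it, where 2.39% and 3.98% of the other hosts were. With exon 3, the authors' deposited table gives Man2b1 8.26 RPKM in knockdown and 18 in control cells (log2 fold change -1.07, FDR 0.00157). In the same authors' table Rec8 went the other way, at 34.5 RPKM in knockdown and 18.2 in control cells (log2 fold change 0.78, FDR 0.00678). The median authors' log2 fold change of the 31 was -0.01 without exon 3 and -0.14 with it, and of the other hosts 0.01 and -0.03.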

How the data were processed

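PolyA RNA from 12 N2a libraries was sequenced. The authors deposited vast-tools inclusion and retention values in percent on mm9, and, per the file headers, a table of gene expression with RPKM per group and log2 fold changes, p-values and FDR per comparison, made with Salmon 0.14.1 and edgeR per the submitters' processing notes. The authors' deposited table of splicing events holds, for each comparison, a score (the change in points) and a call. For the method of these calls, and for what left a value missing, the sources used here give nothing. Input was 1000 ng and mean insert size 540 nt, per the labels' protocols. Depth is unknown, as no read numbers accompany the values, and intervals for counting error are left out; each library had values for 182904 to 207284 events.

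Percentages of all 12 libraries were modelled in limma 3.58.1 (R 4.3.3) as 6 group means with trended, robust variance, after dropping 37194 first-site entries and requiring a value in every library and a mean of 2% to 98%. Benjamini-Hochberg adjustment covered 28979 events of all types, and a call needed an adjusted p under 0.05 and 15 points. The fit was tested on simulated data. Named introns were the 15 called with the largest knockdown difference, called introns of the other contrasts by size, 3 on each side of the control limit, called introns of the 3′ splice site list and at most 3 introns per list that were not called; no gene had 3 called introns. Others, including the remaining called introns, Scrib, Heatr7a, Slk, Ints3, Upf1 and Man2b1, were named after their values were seen. Members and lists were chosen with earlier results of these data known. Alternatives covered the scale, filters, variance model, control limit, adjustment set, replicate block and leaving out each library. P-values rest on the spread between biological replicates, 2 per group. That spread was pooled over the 6 groups of each event and moderated over all tested events. Sequences are from GENCODE M21 (GRCm38); no coordinate was converted. Of the columns with per-sample values, 0 were left unused. Some items that these rules name are not reported here.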

Additional observations from a re-analysis of the deposited data

Results flagged for a closer look

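Data outside the 5409 introns held a further set of calls. Among introns of the same lengths that lacked a value in at least 1 library and had a control mean under 20%, the authors' deposited table calls 9 higher after knockdown in each line. They lie in Als2cl, Cc2d1a, Clcn2, Arrb2, Lmtk3, Hdac7, Plxna3, Phf1 and Gpr124. The authors' deposited difference was largest in Als2cl (312 nt), at 35.3 points without exon 3 and 54.5 with it, where 9 of 12 libraries had a value. These introns were not fitted, and 2 libraries per group are too few for an outlier test. Introns of these lengths that lacked a value numbered 25790 at any control level. How many of those had a control mean under 20% was not counted, so no share stands beside the 9.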

How the results depend on the processing

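The count of 33 introns higher after knockdown on the mean of both lines stayed between 28 and 39 with a logit scale, a replicate block, values in at least 10 libraries, no variance trend, introns alone, a limit on the controls of 1 line, a control mean of at least 2%, or library medians subtracted (added after seeing the data). It was 7 without the filter on the mean, where more events were adjusted together, 55 at 10 points (54 higher, 1 lower), 10 with a control limit of 10%, and 8 to 55 when 1 library was left out. For the line without exon 3 the count of 0 became 2 with the replicate block, 5 without trend or robust estimation, 1 with medians subtracted, and 0 to 7 leaving out 1 library. For the line with exon 3 the count of 4 became 21 with the replicate block, 1 without the filter, 8 without trend or robust estimation, 2 with the limit of 10%, and 0 to 15 leaving out 1 library. Rescue minus knockdown gave 1 on the mean without trend or robust estimation, and 0 to 4 on the mean, 0 to 1 without exon 3 and 0 to 2 with it leaving out 1 library. Rescue minus control and the difference between the lines stayed at 0 throughout. The cause was not tested. Groups share only a number: deviations of same-numbered libraries correlated at 0.149 to 0.31 within a line, and all 33 calls were kept under the block. Over the 15 named introns and 20 alternatives, 237 values kept their call, 63 lost it and 0 turned sign. With 2 libraries a group and unknown depth, many small differences could be missed. Some did reach an adjusted p under 0.05, such as Rbm4 at 3.1 points (limma adjusted p = 0.0483).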
